A study of Mus musculus with 6 samples.

Results

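The genes of cholesterol and fatty acid synthesis and of their main regulators were followed in NIH3T3 cells under forskolin (FSK), which stimulates adenylate cyclase, raises cAMP and so activates protein kinase A (PKA). They were chosen by name, as 36 genes, and 33 of them had a probe set that the array annotation pairs with exactly 1 gene symbol, among 16797 genes tested in all. Acat2, Acacb and Dhcr7 had none and are not analysed here. The 33 genes were read by 37 probe sets, since Idi1, Fdft1, Me1 and Acaca had 2 each. RNA came from 6 Affymetrix arrays of NIH3T3, an immortalized mouse embryonic fibroblast line that the study uses as its Normal cells. The 3 NF arrays were of cells given 10 μM FSK at 24h and at 48h, and the 3 N arrays of cells without FSK. All cells were plated in 25 mM glucose for 16h, then moved to medium with newborn calf serum and 1 mM glucose at the start, and harvested at 72h. The study reports that the medium had run out of glucose by the time of harvest, whether or not FSK was given. The labels call the arrays of a group biological replicates. The labels describe the N cells only as without FSK, and the study's outline of its FSK experiments gives DMSO as the vehicle.

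Cells make cholesterol from acetyl-CoA through mevalonate, farnesyl diphosphate, squalene and lanosterol, and make fatty acids from acetyl-CoA through malonyl-CoA. Both routes are driven by the transcription factors SREBP1 and SREBP2 (Srebf1, Srebf2), which are held in the endoplasmic reticulum by their escort SCAP and by the INSIG proteins while sterols are plentiful. When sterols fall, SCAP carries the SREBPs to the Golgi, where they are cut, and the released part enters the nucleus and binds sterol regulatory elements beside binding sites of NF-Y (the CCAAT box) and Sp1 (the GC box). PKA can also act on several of these enzymes and factors as proteins, by phosphorylation, which RNA levels do not show.

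What the promoters of these genes share was read from RefSeq windows (GRCm38.p6), from which the 250 bases before each start of transcription were searched on both strands. Windows were found for 30 of the 36 genes, 40 windows in all, and not for Fdps, Fdft1, Sqle, Scd1, Scd2 and Fads1. The CCAAT box, spelled CCAAT, was present for 24 of the 30 genes, against 38.6% of the 13452 genes of the array that have a window. The GC box, spelled GGGCGG, was also present for 24 of the 30, against 49.3%, and both boxes before the same start for 18 of the 30, against 17.9%. Insig2 and Me1 had the boxes before different starts only. The sterol regulatory element in the form TCACCCCAC was found for 1 of the 30, Hmgcs1, against 0.587% of genes of the array, and TCACNCCAC, with any base at N, for Hmgcs1 alone as well, against 1.19%. Its longer form, with 1 more base, was found for 0 of the 30, against 0.0743%. The cAMP response element TGACGTCA was found for 0 of the 30, against 2.24%, and its shorter form TGACG for 8 of the 30, against 23.6%. These cAMP motifs were chosen after the values had been seen. A match is a description of letters, not a site, and a missing match says only that these letters are not in the window. The 200 bases before the start are shown for Insig2, the gene of the set that passed the test, at 2 of its 3 starts, for its relative Insig1, for Hmgcs1, which holds the sterol element, and for Hsd17b7, Nsdhl and Ebp, the late enzymes of cholesterol synthesis whose arrays did not overlap between NF and N. Capitals mark the sterol element, the CCAAT box, the GC box, the short cAMP motif and the E-box, spelled CACGTG, or their reverse complements. The E-box was present for 6 of the 30 genes, against 8% of genes of the array.
Insig2 first start, chr1:121332590-121332789, minus strand: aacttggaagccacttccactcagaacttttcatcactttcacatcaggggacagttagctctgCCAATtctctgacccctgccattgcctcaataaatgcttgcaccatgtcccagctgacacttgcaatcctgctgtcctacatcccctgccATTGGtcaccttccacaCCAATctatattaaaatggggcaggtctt
Insig2 second start, chr1:121328025-121328224, minus strand: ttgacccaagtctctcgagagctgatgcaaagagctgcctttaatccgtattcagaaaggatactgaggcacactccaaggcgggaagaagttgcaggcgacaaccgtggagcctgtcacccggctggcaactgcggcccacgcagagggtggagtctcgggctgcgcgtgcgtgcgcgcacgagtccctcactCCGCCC
Insig1, chr5:28071212-28071411, plus strand: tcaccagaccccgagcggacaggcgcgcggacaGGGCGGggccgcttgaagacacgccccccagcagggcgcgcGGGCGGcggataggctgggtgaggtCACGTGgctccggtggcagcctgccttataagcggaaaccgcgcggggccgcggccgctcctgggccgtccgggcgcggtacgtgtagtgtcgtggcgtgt
Hmgcs1, chr13:119690151-119690350, plus strand: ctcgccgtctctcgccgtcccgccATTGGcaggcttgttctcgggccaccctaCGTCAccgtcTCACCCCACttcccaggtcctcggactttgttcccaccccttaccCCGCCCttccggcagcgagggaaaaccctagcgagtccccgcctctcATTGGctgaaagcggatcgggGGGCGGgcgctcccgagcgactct
Hsd17b7, chr1:169969206-169969405, minus strand: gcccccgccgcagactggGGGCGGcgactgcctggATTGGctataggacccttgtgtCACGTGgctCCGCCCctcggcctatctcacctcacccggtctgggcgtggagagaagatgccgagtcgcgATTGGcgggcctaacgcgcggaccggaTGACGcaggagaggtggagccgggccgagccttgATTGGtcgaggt
Nsdhl, chrX:72918321-72918520, plus strand: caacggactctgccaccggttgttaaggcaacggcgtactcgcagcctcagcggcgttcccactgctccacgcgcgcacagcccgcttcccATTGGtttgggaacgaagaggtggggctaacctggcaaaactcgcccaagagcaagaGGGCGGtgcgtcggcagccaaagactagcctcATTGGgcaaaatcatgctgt
Ebp, chrX:8193513-8193712, minus strand: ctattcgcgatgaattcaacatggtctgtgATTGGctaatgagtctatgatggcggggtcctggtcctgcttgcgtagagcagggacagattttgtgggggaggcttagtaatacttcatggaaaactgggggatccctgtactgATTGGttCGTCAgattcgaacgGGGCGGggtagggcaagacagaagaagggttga

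The first start of Insig2 had CCAAT 136, 46 and 29 bases before it and no GC box in the printed stretch, whereas the second start had a GC box ending at the start and no CCAAT. The third start, not printed, had a GC box 128 bases and the short cAMP motif TGACG 146 bases before it, and was the 1 start of Insig2 with that motif. Insig1 carried GC boxes and an E-box in the printed stretch, and farther out CCAAT 216 bases and TGACG 240 bases before its start. Hmgcs1 held its sterol element 137 bases before the start, with CCAAT 45 and 176 bases and GC boxes 24 and 92 bases before it. Hsd17b7, Nsdhl and Ebp all combined CCAAT with a GC box, as did Sc5d, Cyp51, Lss and Msmo1, whose changes with FSK were negative and did not pass the test.

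The values are log2 expression levels, made by the authors with RMA, so that 1 unit is a 2-fold difference. NF was compared with N by limma, with Benjamini-Hochberg adjustment over all 18197 probe sets of 1 gene, and each gene is given by the probe set that had the lowest p of those it has. Fibroblast markers were expressed, with mean levels between 5.16 and 12.55 for the 9 of 11 measured. Col3a1, a collagen gene of this list, was the 1 past the test (log2 change 1.33, adjusted p = 0.0157). All 5 measured markers of fat cells lay under the median level of 3.7, which is used as the bound for dim probe sets, and their mean was between 2.75 and 2.91 in NF arrays and between 2.75 and 2.85 in N arrays. Of the measured markers of epithelial, immune and endothelial cells, 5 of 6, 4 of 4 and 5 of 5 lay under it. One array stood apart, N replicate 1. Over 5189 probe sets of moderate level (5 to 8), its median difference from the mean of the other N arrays was -0.49, against 0.13 and 0.36 for N replicates 2 and 3 and between -0.05 and 0.04 for the NF arrays. In 27 of the 33 genes N replicate 1 lay under the mean of N replicates 2 and 3, with a median difference of -0.27, and in 1364 of the 1657 genes of the array with a mean level above 8, with a median of -0.32. Values without it are therefore given beside the results. In such samples, fewer cells of a type and less RNA per cell cannot be told apart.

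FSK raised 1 of the 33 genes, Insig2, and lowered 0 (limma, adjusted p under 0.05), against 1.83% raised and 0.72% lowered among all 16797 genes. At an unadjusted p under 0.05, 7 of the 33 were higher and 0 lower by limma, against 8.33% and 5.49% of all genes. The study's methods name limma for the arrays, and the test they name for data in general is called the methods' t-test here. By it 6 were higher and 1 lower without adjustment and 0 after it, against 11.1% and 0.00595% of all genes in either direction. All 3 NF values lay above all 3 N values in 7 genes and below them in 1, where all genes gave 10.5% and 9.7%. The mean was higher in NF in 18 of the 33, against 45.2% of all genes. The median log2 change of the 33 genes was 0.12, beside a median of -0.03 over all genes. The 33 genes had mean levels of at least 5.16, and with dim probe sets left out the median over all genes was 0.09. Without N replicate 1 the median of the 33 genes was -0.03, beside -0.02 over all genes. Without that array Insig2 was again the 1 gene raised and 0 were lowered (2.93% and 2.56% of all genes), 7 were higher and 1 lower at an unadjusted p under 0.05 (7.59% and 10.2%), and the NF arrays lay above the N arrays in 7 genes and below them in 10 (14% and 18.4%). Of these 10, Fdft1 and Me1 were read by their other probe set, which had the lowest p without that array. By the probe set used with all arrays, the groups of both genes overlapped. With all arrays, for 21 of the 32 genes that did not pass, the 95% interval of the change excluded a change of 1.5-fold in either direction. For 28 of 32 it excluded a change of 2-fold. These shares, 65.6% and 87.5%, were near those over all genes that did not pass, 58.5% and 89.7%. The 4 genes whose interval reached 2-fold were Hsd17b7, Acly, Acaca and Fasn.

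**Figure D1:**
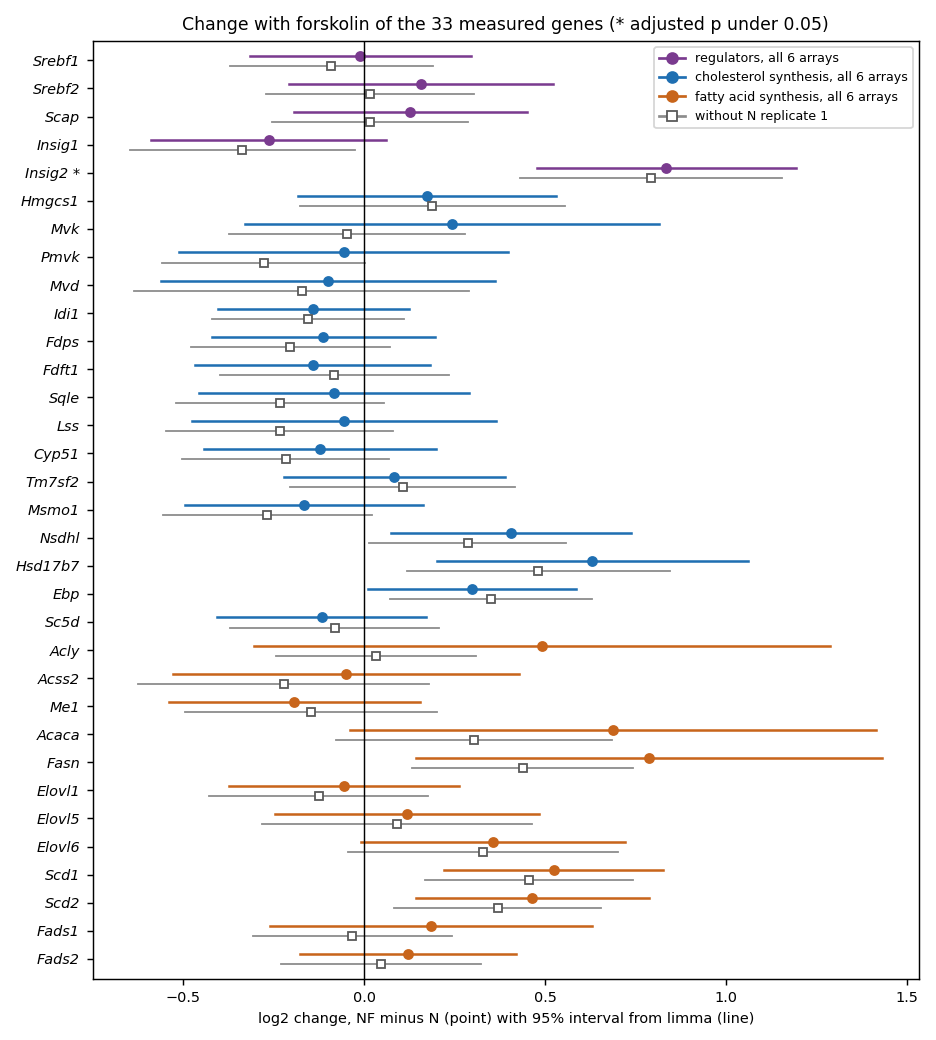
Log2 change (NF minus N, horizontal axis) of the 33 measured genes, in the order of the pathway from top to bottom. Filled circles with coloured lines give the change and its 95% interval from all 6 arrays, open squares with grey lines the same probe sets without N replicate 1, and an asterisk marks an adjusted p under 0.05 (limma). The interval of Insig2 runs from 0.48 to 1.19, and the circles of Acly, Acaca and Fasn lie far to the right of their squares.

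Among the regulators, Insig2 rose with FSK, and its relative Insig1, lower on average, did not pass the test. INSIG2 and INSIG1 both bind SCAP and hold back the SREBPs, but Insig1 is itself a target of SREBP, while Insig2 is not induced in that way and in liver has a transcript from a start of its own that insulin lowers. The log2 expression of Insig2 was 8.66, 8.43 and 8.76 in NF arrays, against 7.70, 7.64 and 8.01 in N arrays. Every NF array was above every N array, by at least the distance between 8.43 and 8.01. Its mean was 8.62 ± 0.17 (SD, n = 3) in NF and 7.78 ± 0.20 (SD, n = 3) in N, 1.78-fold higher (log2 change 0.83, standard error 0.16, adjusted p = 0.0382 from limma). Without N replicate 1 the log2 change was 0.79 (adjusted p = 0.0247). The log2 change stayed between 0.76 and 0.95 in all 15 alternatives, but the gene was past the threshold in 7 of them. These 7 included 1 of the 6 fits that left out an array. They also included the methods' t-test without adjustment, and by that test the gene did not pass after adjustment. Over the alternatives that adjust p, adjusted p lay between 0.0181 and 0.290. Each of NF replicates 1, 2 and 3 and N replicates 2 and 3 decided the call when left out, at adjusted p = 0.213, 0.0622, 0.207, 0.0962 and 0.0544.

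Insig1 had 9.43, 9.38 and 9.69 in NF arrays, against 9.62, 9.83 and 9.84 in N arrays. The groups overlapped through NF replicate 3 and N replicate 1. Its log2 change was -0.26 (95% interval from -0.59 to 0.06, adjusted p = 0.495 from limma), and -0.34 without N replicate 1, where the NF arrays lay under both remaining N arrays (adjusted p = 0.247, the 1 gene lower at an unadjusted p under 0.05). The change of Insig2 exceeded that of Insig1 by 1.10 on the log2 scale, a description of a pair singled out after its values had been seen.

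The SREBP genes and Scap gave no difference beyond the spread of the arrays. Srebf1, whose product favours fatty acid genes, had 5.86, 6.02 and 5.98 in NF arrays, against 5.80, 5.99 and 6.10 in N arrays, with a log2 change of -0.01 (95% interval from -0.32 to 0.29, adjusted p = 0.983 from limma). The single probe set does not tell apart its isoforms. Srebf2, whose product favours cholesterol genes, had 8.85, 8.75 and 8.97 in NF arrays, against 8.41, 8.82 and 8.86 in N arrays. Scap, the escort of both, had 7.19, 7.07 and 7.09 in NF arrays, against 6.76, 7.11 and 7.09 in N arrays. In both genes N replicate 1 was the lowest array and the other N arrays lay among the NF arrays or beside them. The log2 changes were 0.16 for Srebf2 and 0.13 for Scap, and both were 0.02 without N replicate 1.

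**Figure D2:**
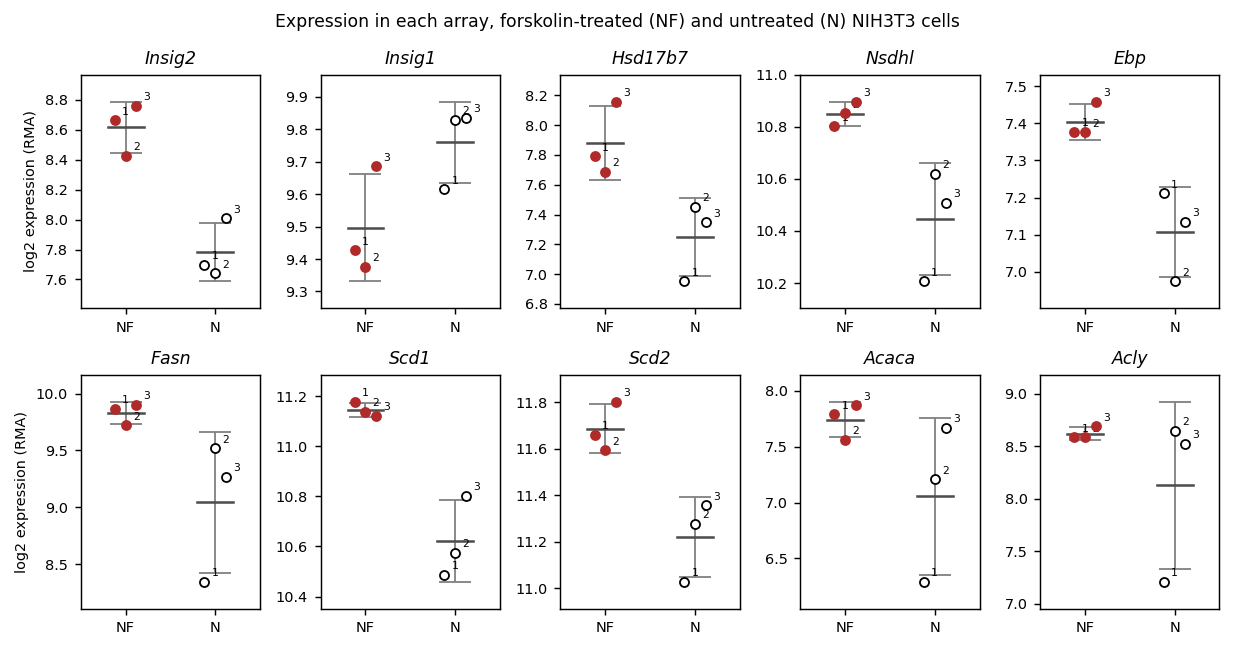
Log2 expression (RMA, vertical axis) of 10 genes in each NF array (filled) and each N array (open), with the replicate number beside each point, the mean as a bar and the SD as whiskers (n = 3). The vertical axes differ between panels and do not start at 0. The NF arrays lie above the N arrays for Insig2, Hsd17b7, Nsdhl, Ebp, Fasn, Scd1 and Scd2, and N replicate 1 is far under the other arrays for Fasn, Acaca and Acly.

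Of the 16 measured enzymes of cholesterol synthesis, 0 passed limma's test, 3 were higher and 0 lower at an unadjusted p under 0.05, and the methods' t-test without adjustment gave 3 higher and 1 lower. Over all genes limma's unadjusted shares were 8.33% higher and 5.49% lower. The median log2 change of the 16 enzymes was -0.07, beside -0.03 over all genes and 0.09 over all genes with dim probe sets left out. On average 6 of the 16 were higher, against 45.2% of all genes. The 3 with an unadjusted limma p under 0.05 were Hsd17b7, Nsdhl and Ebp, which act late in the pathway, after lanosterol. The other measured enzymes after lanosterol had log2 changes of -0.12 (Cyp51), -0.17 (Msmo1), -0.12 (Sc5d) and 0.08 (Tm7sf2). Hsd17b7, the ketoreductase in the removal of methyl groups at carbon 4 of the sterol, had 7.79, 7.69 and 8.16 in NF arrays, against 6.95, 7.45 and 7.35 in N arrays. Its log2 change was 0.63, or 1.55-fold (standard error 0.19, adjusted p = 0.160 from limma).

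Nsdhl, the dehydrogenase of the same reaction sequence, had 10.80, 10.85 and 10.90 in NF arrays, against 10.21, 10.62 and 10.51 in N arrays. Here too no array of one group reached the other, and NF exceeded N by 0.41 on the log2 scale (adjusted p = 0.255 from limma, standard error 0.14). Ebp, the isomerase that shifts the double bond of the sterol ring, had 7.38, 7.38 and 7.46 in NF arrays, against 7.21, 6.97 and 7.13 in N arrays (log2 change 0.30, adjusted p = 0.356). Without N replicate 1 the log2 changes of Hsd17b7, Nsdhl and Ebp were 0.48, 0.29 and 0.35, none past the adjustment, and the remaining N arrays still lay under all NF arrays. Msmo1, the oxidase that works with Nsdhl and Hsd17b7, had a change of the other sign, at 9.83, 9.87 and 9.89 in NF arrays, against 9.83, 10.02 and 10.25 in N arrays (log2 change -0.17, adjusted p = 0.697).

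No enzyme upstream of lanosterol had an unadjusted limma p under 0.05. Idi1, which isomerizes isopentenyl diphosphate, varied little between arrays and was the 1 gene of the 33 with all NF arrays below all N arrays, at 8.12, 8.11 and 8.17 in NF arrays, against 8.24, 8.27 and 8.31 in N arrays. Its log2 change was -0.14 (standard error 0.11, adjusted p = 0.684 from limma), and its other probe set gave -0.07 with overlapping groups. Sqle, squalene epoxidase, a rate-limiting step after squalene, had 9.70, 9.76 and 9.86 in NF arrays, against 9.56, 9.92 and 10.09 in N arrays. The NF arrays of Sqle fell inside the range of the N arrays, and its log2 change was -0.08 (95% interval from -0.46 to 0.29). Hmgcs1, which makes HMG-CoA and holds the sterol element shown above, had 9.37, 8.94 and 9.36 in NF arrays, against 9.08, 9.10 and 8.96 in N arrays, a log2 change of 0.17 with NF replicate 2 lowest of all.

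The other 9 enzymes of this route had log2 changes between -0.14 and 0.24, each with an unadjusted p above 0.05 and overlapping groups. They were the kinases Mvk (0.24) and Pmvk (-0.06) and the decarboxylase Mvd (-0.10) of the mevalonate steps, farnesyl diphosphate synthase Fdps (-0.11), squalene synthase Fdft1 (-0.14), lanosterol synthase Lss (-0.06), the lanosterol demethylase Cyp51 (-0.12), and the sterol reductase Tm7sf2 (0.08) and desaturase Sc5d (-0.12). N replicate 1 was 0.87 under the mean of N replicates 2 and 3 for Mvk and 0.66 under it for Pmvk. Without that array, all NF values lay below both N values in 8 of the 16 enzymes, Pmvk, Idi1, Fdps, Fdft1, Sqle, Lss, Cyp51 and Msmo1, where all genes gave 18.4% in this direction. Their log2 changes were then between -0.28 and -0.10 and none passed limma's adjustment, with adjusted p between 0.301 and 0.799. The share of 18.4% takes in dim genes. N replicate 1 lay under the mean of N replicates 2 and 3 in 9323 of all 16797 genes, but in 4220 of the 4843 with a mean level of 5 to 8. For Fdft1 the probe set with the lowest p without N replicate 1 was another one than with all arrays. By the probe set used with all arrays, the groups of Fdft1 overlapped without N replicate 1 as well. The median of the 16 enzymes was -0.13 without N replicate 1, and it turned to 0.03 on leaving out either N replicate 2 or N replicate 3.

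**Figure D3:**
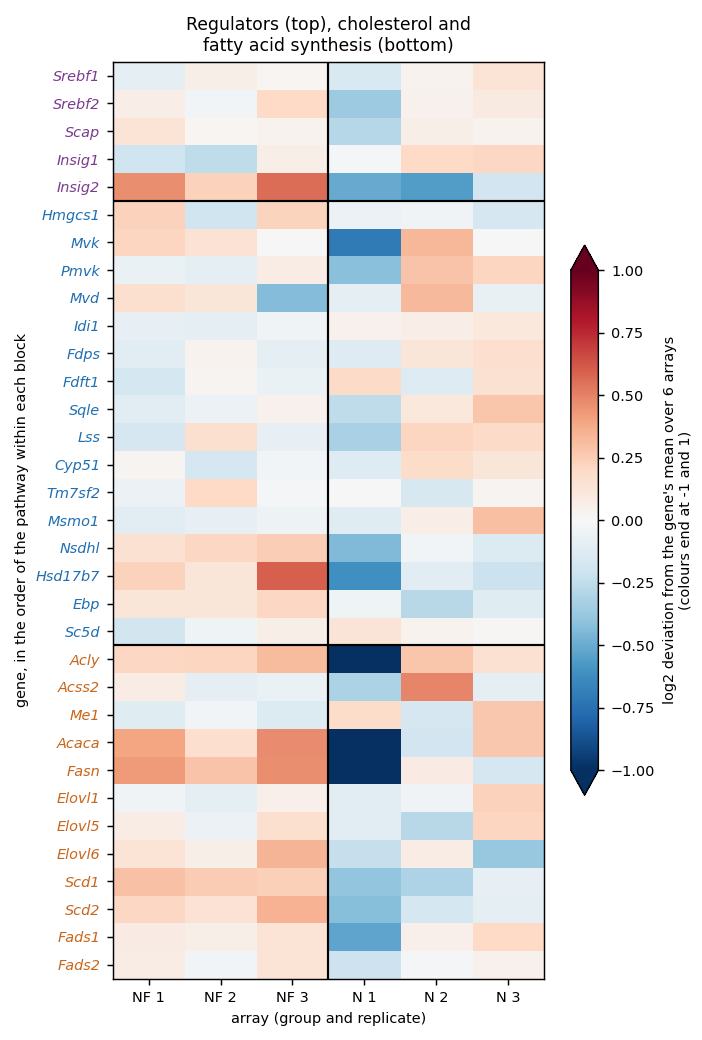
Deviation of each of the 33 genes from its own mean over the 6 arrays (log2, colour, red higher and blue lower), with the NF arrays to the left of the N arrays. Rows are the regulators, the cholesterol synthesis enzymes and the fatty acid synthesis enzymes, in pathway order. Acly, Acaca and Fasn are deep blue in N replicate 1, and Hsd17b7, Nsdhl and Ebp are red in the NF arrays in contrast to the rows just above them.

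Of the 12 measured genes of fatty acid synthesis, 0 passed limma's test, 3 were higher and 0 lower at an unadjusted p under 0.05, and 2 were higher by the methods' t-test without adjustment. The shares of all genes were 8.33% and 5.49% by limma without adjustment. The median log2 change of the 12 was 0.27, with 9 higher and 3 lower on average, where 45.2% of all genes were higher. It was 0.07 without N replicate 1, where 8 were higher and 4 lower on average. Scd1, stearoyl-CoA desaturase, which makes oleic from stearic acid, came closest to the threshold, at 11.18, 11.14 and 11.12 in NF arrays, against 10.49, 10.58 and 10.80 in N arrays. Its mean was 11.15 ± 0.03 (SD, n = 3) in NF and 10.62 ± 0.16 (SD, n = 3) in N, 1.44-fold higher (log2 change 0.52, standard error 0.13, adjusted p = 0.0958 from limma). It passed once the arrays were also quantile normalized (log2 change 0.47, adjusted p = 0.0450), and in the other alternatives that adjust p it did not.

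Scd2, a desaturase of the same family that is expressed outside liver, had 11.66, 11.59 and 11.80 in NF arrays, against 11.03, 11.28 and 11.36 in N arrays. Its groups did not overlap either, and the log2 change was 0.46, or 1.38-fold (standard error 0.14, adjusted p = 0.167 from limma). Scd1 and Scd2 are close paralogs and cross-hybridization between their probes was not tested. Without N replicate 1 the log2 changes were 0.46 for Scd1 (adjusted p = 0.0806) and 0.37 for Scd2 (adjusted p = 0.156).

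Fasn, fatty acid synthase, had 9.87, 9.72 and 9.90 in NF arrays, against 8.35, 9.52 and 9.27 in N arrays. All NF arrays were above all N arrays, but N replicate 1 was 1.05 under the mean of the other N arrays. The change was 1.72-fold (log2 change 0.79, standard error 0.28, adjusted p = 0.254 from limma), and 1.35-fold without N replicate 1 (log2 change 0.44, adjusted p = 0.113). Acaca, acetyl-CoA carboxylase, which makes malonyl-CoA and is the rate-limiting enzyme of the route, had 7.79, 7.57 and 7.87 in NF arrays, against 6.29, 7.21 and 7.67 in N arrays. NF replicate 2 lay under N replicate 3, and the log2 change was 0.69 (adjusted p = 0.404), or 0.49 by its other probe set. Without N replicate 1 these were 0.30 and 0.18.

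Acly, ATP citrate lyase, which supplies cytosolic acetyl-CoA to both routes, had 8.58, 8.58 and 8.69 in NF arrays, against 7.21, 8.65 and 8.52 in N arrays. The groups overlapped through N replicate 2 alone, and N replicate 3 lay just under the NF arrays. N replicate 1 was 1.37 under the mean of the other N arrays, the farthest of the 33 genes. The log2 change was 0.49 with all arrays (95% interval from -0.30 to 1.29, adjusted p = 0.618 from limma) and 0.03 without N replicate 1 (95% interval from -0.24 to 0.31). In Fasn, Acaca and Acly the difference between NF and N was thus smaller without the 1 array that also stood apart in genes outside these routes.

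The other 7 genes of the route had log2 changes between -0.19 and 0.36. Elovl6, which elongates palmitic to stearic acid, had 8.48, 8.40 and 8.69 in NF arrays, against 8.11, 8.42 and 7.97 in N arrays (log2 change 0.36, adjusted p = 0.387). N replicate 2 was the array that overlapped. The elongases Elovl1 (-0.06) and Elovl5 (0.12), the desaturases of polyunsaturated fatty acids Fads1 (0.18) and Fads2 (0.12), the acetyl-CoA synthetase Acss2 (-0.05) and malic enzyme Me1 (-0.19 by both probe sets), a source of NADPH, all overlapped between the groups. Fads1 had its lowest value, 10.48, in N replicate 1, and its log2 change was -0.03 without that array.

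**Figure D4:**
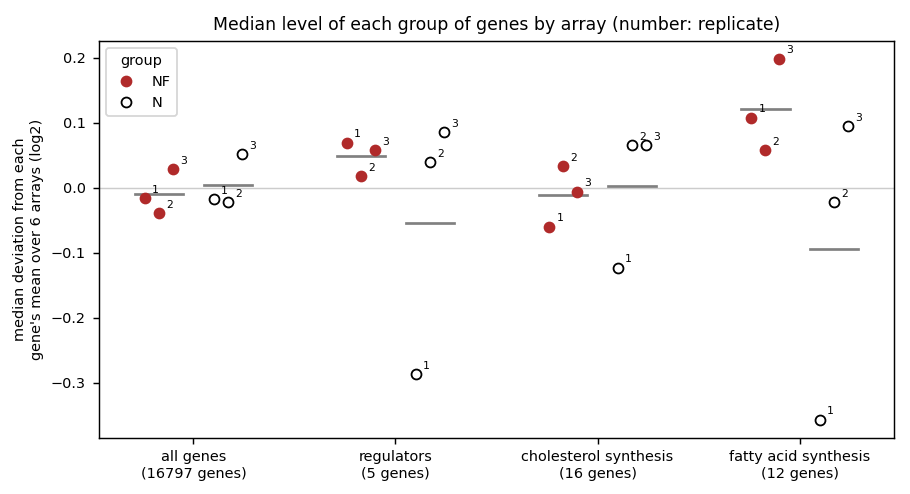
Median deviation of the genes of a group from the mean of each gene across all 6 arrays (vertical axis, log2), for each NF array (filled) and each N array (open), with a bar at the mean of the 3 arrays and the replicate number beside each point. The fatty acid genes lie between 0.06 and 0.20 in NF arrays and at -0.36, -0.02 and 0.09 in N arrays, and N replicate 1 is also the lowest array for the regulators and the cholesterol genes.

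Summarized by array, the median deviation of the 12 fatty acid genes from their own means was 0.11, 0.06 and 0.20 in NF arrays, against -0.36, -0.02 and 0.09 in N arrays. N replicate 3 lay among the NF arrays. For the 16 cholesterol genes the medians were -0.06, 0.03 and -0.01 in NF arrays, against -0.12, 0.07 and 0.07 in N arrays, and the NF arrays lay inside the range of the N arrays. Over all genes the same measure stayed between -0.04 and 0.05 in every array.

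Neighbouring genes of lipid metabolism gave 1 call, in Fads3. Of 16 other genes of elongation and desaturation, 0 rose and 1 fell, where 1.83% and 0.72% of all genes did. Fads3, a relative of Fads1 and Fads2, had 8.99, 9.44 and 9.24 in NF arrays, against 10.22, 10.04 and 10.74 in N arrays, 2.16-fold lower (log2 change -1.11, standard error 0.21, adjusted p = 0.0387 from limma). Without N replicate 1 the log2 change was -1.17 (adjusted p = 0.0178). With NF replicate 1 or NF replicate 3 left out, 0 of all genes fell past the test, so Fads3 did not pass in those fits. Of 20 genes of fatty acid oxidation, the opposing route, 0 passed limma's test, 5 were higher and 0 lower at an unadjusted p under 0.05 (8.33% and 5.49% of all genes), and 2 were higher by the methods' t-test without adjustment, with a median log2 change of 0.35, or 0.11 without N replicate 1. Cpt1a, which admits fatty acids to mitochondria and is inhibited by malonyl-CoA, had 9.52, 9.22 and 9.60 in NF arrays, against 7.42, 8.74 and 8.18 in N arrays. It was 2.52-fold higher (log2 change 1.33, adjusted p = 0.0719) and passed without N replicate 1 (log2 change 0.99, adjusted p = 0.0213).

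The remaining lists held no gene past limma's test. Of 7 genes of sterol uptake and other sterol genes, 1 was higher and 0 lower at an unadjusted p under 0.05, of 9 of sterol efflux and LXR 2 and 0, of 10 of the isoprenoid branch 0 and 0, of 19 of fatty acid activation and glycerolipids 3 and 1, and of 12 of acetyl-CoA and NADPH supply 2 and 1, where all genes gave 8.33% and 5.49%. The methods' t-test without adjustment gave 0 and 0, 0 and 0, 0 and 1, 2 and 1, and 2 and 0 for the same lists, and 11.1% in either direction over all genes. Fabp5, a fatty acid binding protein, had 7.98, 8.16 and 8.33 in NF arrays, against 8.65, 8.77 and 8.80 in N arrays. It passed limma's test without N replicate 1 (log2 change -0.63, adjusted p = 0.0371) but not with all arrays as deposited (log2 change -0.58, adjusted p = 0.0797). After quantile normalization of the 6 arrays, Cpt1a and Pgd, a gene of the acetyl-CoA and NADPH list, passed as higher and Fabp5 as lower. Cpt1a, Fabp5 and Pgd were singled out after their values had been seen.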

How the data were processed

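The authors processed 6 Affymetrix arrays with RMA in the R/Bioconductor package oligo, annotated them from ENSEMBL and discarded probe sets without an Entrez gene. The deposited values are on the log2 scale. Package versions, genome build and which arrays were normalized together are not given in the sources used here. Of 22035 probe sets, the 18197 paired with 1 gene symbol by GEO's platform annotation were tested, and 1260 with several symbols and 2578 not listed were left out.

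NF (n = 3) was compared with N (n = 3) in R 4.3.3 with limma 3.58.1 (lmFit, eBayes, prior degrees of freedom 4), adjusted over all these probe sets, threshold 0.05. Groups came from the sample titles. The members and gene lists were chosen with earlier results of these data known, so counts over them are descriptions. Values in every array are given for members with a limma p under 0.05, adjusted or not, or no overlap, and for the 5 regulators, Sqle, Fasn, Acaca, Acly and Scd1. Hmgcs1, Msmo1 and Elovl6 were added after their values were seen. Of other lists, genes past the test were to be named. The fit was tested on simulated data. Alternatives were another normalization, filter, probe set, test and block, and leaving out each array. The number of arrays limits the precision.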

Additional observations from a re-analysis of the deposited data

How the results depend on the processing

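The count of the 33 genes that rose, 1 in the fit given, was 0 with the replicate number as a block, 2 (Insig2 and Scd1) after quantile normalization of the deposited values, 6 by the methods' t-test without adjustment and 0 after it, 0 with every probe set of the table in the adjustment, and between 0 and 1 with an array left out. The count that fell, 0, was 1 (Idi1) by the methods' t-test without adjustment and 0 with any array left out. Over all genes the counts higher and lower, 307 and 121, were 63 and 17 with the replicate block, 495 and 365 after quantile normalization, 1000 and 861 by the methods' t-test without adjustment and 1 and 0 after it, 181 and 58 with every probe set, and between 1 and 492 and between 0 and 430 with an array left out. The replicate numbers gave no sign of pairing the arrays. The deviations of arrays with the same number correlated at -0.0748, -0.0780 and -0.0736, and those with different numbers between -0.0387 and 0.142. With 3 arrays a group, these values cannot tell whether arrays of the same number were handled together. Insig2 kept its log2 change of 0.83 under the block (adjusted p = 0.0759).

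With an array left out, the median log2 change was between -0.0319 and 0.151 for the 33 genes, between -0.127 and 0.0317 for the cholesterol enzymes and between 0.0685 and 0.369 for the fatty acid genes. Median centring, quantile normalization, leaving out dim probe sets, the probe set with the highest mean and counting every probe set moved these 3 medians by less than the spread between arrays. Leaving out dim probe sets raised the median of all genes tested by 0.11. The log2 change of Srebf1 was between -0.0907 and 0.0565 with an array left out, above 0 without NF replicate 1 (0.0357), N replicate 2 (0.0025) or N replicate 3, and that of Sqle was between -0.2323 and 0.0354, above 0 without N replicate 3, none past the test. The cause of these changes was not tested.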
